A study of Mus musculus with 20 samples.

Results

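The endothelin system genes were chosen by symbol: the ligand genes Edn1, Edn2 and Edn3, the converting enzyme gene Ece1, and the receptor genes Ednra and Ednrb, 6 genes of the 47069 in the count table. Kidney RNA was sequenced from 20 mice of the 129SJ x C57Bl/6J strain, which per the study's methods were male F1 hybrids and were 15 weeks old. The 5 WT mice were untreated littermates with intact Col4a3, and the other 15 mice were Col4a3-/-, a model of Alport syndrome in which the gene of a type IV collagen chain of the glomerular basement membrane is disrupted in every cell. From 5 weeks of age, 6 Col4a3-/- mice received PBS once weekly under the skin (Veh) and 6 were injected in the same way with PBS holding lademirsen (50 mg/kg each week), an antisense compound that blocks miR-21 (anti-miR-21). The remaining 3 received ramipril, an inhibitor of the angiotensin-converting enzyme, in the drinking water together with PBS (ACEi). The labels give ramipril at 11 mg/L, whereas the deposited library table gives 4 mg/kg. WT mice were not injected, so genotype and the PBS injections cannot be told apart between Veh and WT.

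Endothelins are small peptides that are cut from longer precursors, first by furin-type proteases and then by the endothelin-converting enzyme. They act on G protein-coupled receptors: the A receptor (ETA) on smooth muscle, mesangial cells and fibroblasts drives constriction and matrix formation, and the B receptor (ETB) on endothelium and the collecting duct releases nitric oxide, clears endothelin from the blood and promotes sodium and water excretion. In the kidney, endothelin-1 is made by endothelium, podocytes and tubules, above all by the collecting duct, and blockers of the A receptor lower albuminuria.

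The mature peptides were compared at their coding bases, since the ligand genes are told apart by reads and their products act on the same receptors. Edn1 (ENSMUSG00000021367) lies at chr13:42301476-42307990 on the forward strand of GRCm38, Edn2 (ENSMUSG00000028635) at chr4:120161206-120167360 and Edn3 (ENSMUSG00000027524) at chr2:174760619-174784042, both also forward. The 63 coding bases of each 21-residue mature endothelin, from the GENCODE M21 transcripts, are printed 5′ to 3′ with capitals at bases that differ from Edn1.
Edn1: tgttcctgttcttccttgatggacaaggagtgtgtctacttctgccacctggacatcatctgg
Edn2: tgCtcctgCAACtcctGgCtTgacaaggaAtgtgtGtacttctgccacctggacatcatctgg
Edn3: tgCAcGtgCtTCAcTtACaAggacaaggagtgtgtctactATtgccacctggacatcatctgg
Edn2 differed from Edn1 at 10 of these bases and 3 residues, and Edn3 at 13 bases and 6 residues. The differences lay mostly in the part near the amino end, and the carboxy end that all endothelins share was the same. Over the whole aligned coding sequence Edn1 was 63.3% identical to Edn2 and 66.8% identical to Edn3, and the longest identical run between any ligand genes was 29 bases. Ednra (ENSMUSG00000031616, chr8:77663031-77724464, reverse strand) and Ednrb (ENSMUSG00000022122, chr14:103814625-103844402, reverse strand) were 66.9% identical, with no identical run over 12 bases. Ece1 (ENSMUSG00000057530) lies at chr4:137862237-137965229 on the forward strand.

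Antisense or overlapping genes were checked because the counting is not stated to use strand. Exons of Edn1 overlap the antisense gene Gm47118. No counts were found under that symbol, so this overlap could not be checked for Edn1. Exons of Ednra overlap 4933431K23Rik on the opposite strand, which had at most 8 counts in any mouse against 40 or more for Ednra. The antisense gene Gm13012 lies within an intron of Ece1 and had at most 16 counts in any mouse.

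Because anti-miR-21 acts through pairing with miR-21, the 3′ untranslated regions of the endothelin genes were searched for sites of its seed. The mature sequence of mmu-miR-21a-5p (RefSeq, GRCm38.p6, chr11:86584120-86584141, reverse strand) is printed with the seed, bases 2 to 8, in capitals.
mmu-miR-21a-5p: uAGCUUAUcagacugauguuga
The site letters searched on the transcript strand were ATAAGCT and TAAGCTA, which overlap in 6 bases. Of the 6 endothelin genes 0 held such a site, against 11.2% of 20730 protein-coding genes with a 3′ untranslated region. This says only that these letters are not in those windows.

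Library totals were alike, with 28474301 to 29479629 estimated counts per mouse, and a count of 3 corresponded to 0.0824 to 0.134 CPM. Levels are given as CPM, the usual depth-scaled count, after TMM scaling, which sets libraries on a common scale from genes of middle fold change. The TMM factors of WT mice lay between 0.7705 and 0.8496 and those of Veh mice between 1.1226 and 1.2637, so a fold change between these groups depends on the scaling, and library totals alone moved the median over all genes from 0.07 to 0.65 on the log2 scale. With TMM 6869 genes were higher and 5998 lower in Veh than in WT, and with library totals alone these were 11623 and 2684. Between anti-miR-21 and Veh the split was 5073 higher and 5367 lower with TMM and 2459 and 9861 with library totals. Between ACEi and Veh it was 3704 and 3370 with TMM, 1907 and 7389 with library totals and 3063 and 4317 with upper-quartile scaling. Between anti-miR-21 and WT it was 4203 and 3496 with TMM and 7719 and 998 with library totals, and between ACEi and WT 4432 and 3973 with TMM and 8006 and 1345 with library totals. Col4a3, the disrupted gene, lay at 194 to 238 CPM in WT and at 27.9 to 74.9 CPM in the 15 Col4a3-/- mice, with no overlap. The labels name kidney as the tissue while an extraction note speaks of adipose tissue. All 5 proximal tubule markers were at 1 CPM or more in every mouse, whereas the 4 adipocyte markers summed to under 20 CPM in 16 libraries and to 78.5 to 113 CPM in Veh mice A1, A4 and A9 and anti-miR-21 mouse A12. Results that rest on these 4 libraries are given with and without them where the call changes.

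The question of the comparison of Veh with WT was how the untreated disease differs from the healthy kidney. Edn1 and Ednra were 10.9-fold and 4.89-fold higher in Veh, with no overlap between the groups, whereas Edn3, Ednrb and Ece1 did not pass the test. Of the 5 members that passed the filter on low counts 2 were called, both higher, where 73.0% of all 17622 genes were called and 39.0% were called higher. The 2 members whose groups did not overlap stand against 54.9% of all genes. A change in this comparison was therefore common among genes, and bulk RNA cannot tell more RNA per cell from more cells of a type.

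Edn1 encodes the precursor of endothelin-1, the main vasoconstrictor endothelin of the kidney. Its levels in the WT mice A3, A6, A14, A17 and A18 were 1.60, 2.09, 2.28, 1.88 and 2.01 CPM, from 36 to 54 counts. In Veh they ran from 11.4 over a median of 21.1 to 34.3 CPM. Every Veh mouse lay above every WT mouse, with A16 the lowest and A9 the highest. On the log2 scale the change was 3.45 (standard error, SE, 0.23, adjusted p = 6.5e-11 by edgeR), with a 95% interval of the fold from 7.80 to 15.3. It was 3.67 among the libraries of flow cell A and 2.89 among those of flow cell B. In Veh the 4 mice of flow cell A had 19.8 to 34.3 CPM and the 2 of flow cell B 11.4 and 17.5 CPM. Without the 3 Veh and the 1 treated library with high adipocyte markers it was 3.12 (adjusted p = 4.52e-09). Markers of several cell types moved in the same comparison. The 3 tubule injury markers, all called higher, summed to 14.4 to 31 CPM in WT and 523 to 1040 CPM in Veh, and the 5 macrophage markers, all called higher, to 125 to 138 and 575 to 695 CPM. The 5 proximal tubule markers, all called lower, summed to 11700 to 15000 CPM in WT and 1290 to 3630 CPM in Veh. Lists of the sources of endothelin-1 named above moved as well. The 4 principal cell markers of the collecting duct, 3 called lower, summed to 582 to 916 and 360 to 740 CPM. The 6 endothelial markers, 3 called higher and 1 lower, summed to 196 to 465 and 513 to 623 CPM. The 4 podocyte markers, 3 called higher, summed to 189 to 316 and 335 to 394 CPM. No marker of these lists was at 0 in every mouse of a group, and their part in the result was not tested.

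Edn2, a ligand best known from intestine and ovary, had 0 counts in 17 of the 20 mice and 1 count in each of the WT mouse A14, the Veh mouse A4 and the anti-miR-21 mouse A2. It did not pass the filter and was not tested. A count of 0 allows up to 3 counts, so in the 17 mice with 0 counts Edn2 was not detectable above 0.134 CPM, counting error only. For the mice with 1 count the limit is higher.

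Edn3 encodes endothelin-3, which binds the B receptor with higher affinity than the A receptor and is known for its part in the development of neural crest cells. It had 7.84, 8.33, 9.25, 9.85 and 7.05 CPM in the WT mice A3, A6, A14, A17 and A18. In Veh it ran from 6.68 over a median of 10.9 to 18.3 CPM. The Veh mice split, as A4, A16 and A20 lay above all WT mice at 13.8 to 18.3 CPM and A1, A9 and A19 lay between 6.68 and 8.04 CPM, within or below the WT range. The fitted log2 fold change of 0.45 (SE 0.21, unadjusted p = 0.0469, adjusted p = 0.063 by edgeR) missed the threshold, and its interval ran from -3e-04 to 0.89. It passed without A1 (adjusted p = 0.03), A9 (0.029) or A19 (0.014), with library totals alone (log2 fold change 1.02) and in flow cell B alone (0.74, adjusted p = 0.0229), but not in flow cell A (0.29, adjusted p = 0.399).

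Ece1 encodes the protease that cuts big endothelin into the active peptide, and it was the most abundant member per length. It had 97.3, 115, 85.1, 88.1 and 83.3 CPM in the WT mice A3, A6, A14, A17 and A18, and 79.8 to 101 CPM in Veh with a median of 95.5 CPM. The groups overlapped throughout. Fitted by edgeR, the log2 fold change was -0.02 (SE 0.08, adjusted p = 0.83), with an interval from -0.19 to 0.15. With library totals alone the direction turned, to 0.56 (adjusted p = 7.68e-06), close to the median of 0.65 of all genes under that scaling.

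Ednra encodes the A receptor. It had 2.895, 4.06, 2.58, 1.96 and 1.68 CPM in the WT mice A3, A6, A14, A17 and A18, and in Veh it ran from 10.0 over a median of 12.5 to 17.5 CPM. Every Veh mouse lay above every WT mouse. In the fit the log2 fold change was 2.29 (SE 0.22, adjusted p = 1.22e-08), with a 95% interval of the fold from 3.52 to 6.79. It was 1.96 in flow cell A and 2.95 in flow cell B. Summed markers of cells that carry the receptor were also higher in Veh than in WT. The 5 fibroblast markers, all called higher, summed to 117 to 304 CPM in WT and 2270 to 2820 CPM in Veh. The 5 markers of smooth muscle and pericytes, 4 of them called higher, summed to medians of 186 CPM in WT and 599 CPM in Veh. The Veh mice had 560 to 748 CPM of the latter, and all WT mice were lower. No marker of either list was at 0 in every mouse of a group. Their part in the result was not tested.

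Ednrb encodes the B receptor. It had 11.1, 14.9, 16.1, 13.9 and 6.75 CPM in the WT mice A3, A6, A14, A17 and A18, and in Veh it ran from 10.2 over a median of 14.9 to 19.04 CPM. The groups overlapped, with A18 the lowest of all mice. Its log2 fold change of 0.26 (SE 0.17, with adjusted p = 0.182) did not pass, with an interval from -0.11 to 0.63. It was 0.10 without A18, whose 6 endothelial markers summed to 196 CPM against 332 to 465 CPM in the other WT mice and 513 to 623 CPM in Veh, with 3 of the 6 markers called higher and 1 lower. Their part in the result was not tested. It passed with library totals alone (0.84, adjusted p = 0.000278).

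**Figure D1:**
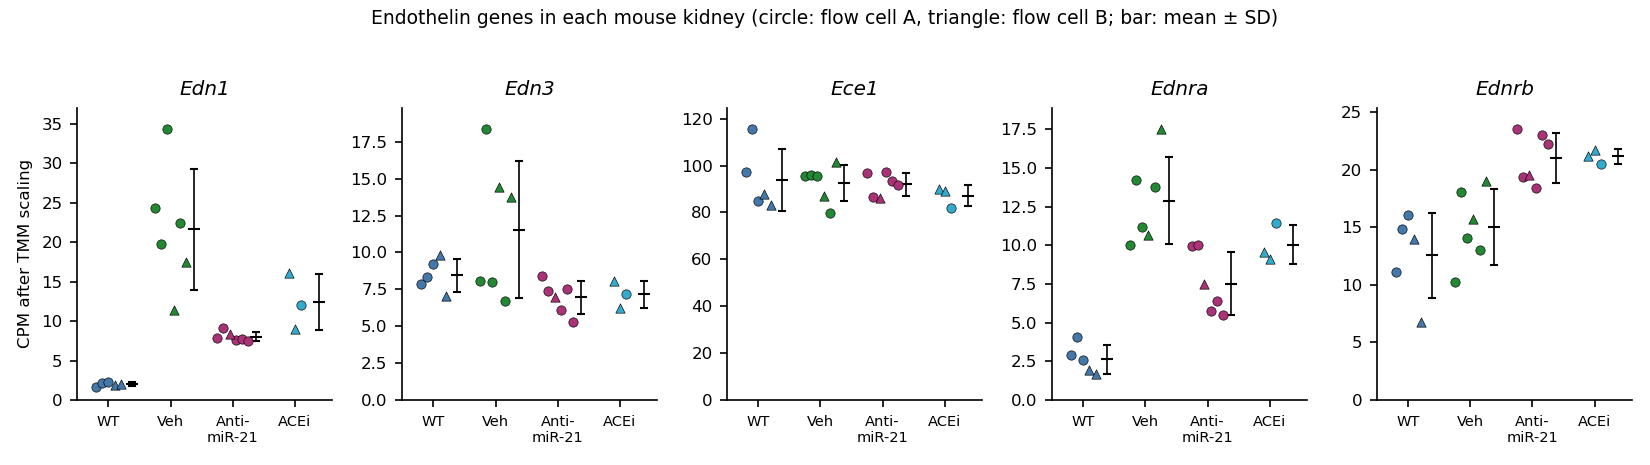
Level of each tested endothelin gene in every mouse, in CPM after TMM scaling on linear axes from 0, by group, with circles for flow cell A, triangles for flow cell B and bars for the mean ± SD. All 6 Veh mice lay above all 5 WT mice for Edn1 and Ednra, while the groups overlapped for Edn3, Ece1 and Ednrb.

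The comparison of anti-miR-21 with Veh asked which of these levels differ when miR-21 is inhibited in the diseased kidney. Edn1 was 2.69-fold, Ednra 1.71-fold and Edn3 1.66-fold lower than in Veh, Ednrb was 1.40-fold higher, and Ece1 did not pass. Of the 5 members tested 4 were called, 3 of them lower, where 59.2% of all genes were called and 30.5% were called lower. Only Edn1 had groups that did not overlap, 1 of 5 members against 36.4% of all genes.

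Edn1 ran from 7.52 over a median of 7.80 to 9.08 CPM in the anti-miR-21 group. All 6 mice lay below every Veh mouse, and their coefficient of variation was 7.42% against 35.4% in Veh. On the log2 scale the change was -1.43 (SE 0.19, adjusted p = 2.12e-06), and the 95% interval of the fold ran from 0.283 to 0.489. It was -1.65 in flow cell A (adjusted p = 1.07e-06) and -0.78 in flow cell B, where the single anti-miR-21 library was assumed to vary like the others and the difference did not pass (adjusted p = 0.273).

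Ednra ran from 5.47 over a median of 6.97 to 10.1 CPM. Only A8, at 10.05 CPM, lay above the lowest Veh mouse, A1, at 10.03 CPM. The fitted log2 fold change was -0.78 (SE 0.19, adjusted p = 0.00176), with -0.70 in flow cell A and, against 1 anti-miR-21 library, -0.90 in flow cell B (adjusted p = 0.144). The fibroblast markers, 4 of 5 called lower, summed to 539 to 1120 CPM and the smooth muscle and pericyte markers, 4 of 5 called lower, to 294 to 394 CPM, and their part in the result was not tested.

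Edn3 ran from 5.31 over a median of 7.21 to 8.41 CPM, which overlaps the lower 3 Veh mice. Fitted by edgeR, the log2 fold change was -0.73 (SE 0.20, adjusted p = 0.004). Within flow cells it was -0.55 (adjusted p = 0.0833) in A and -1.01 (adjusted p = 0.0858) in B, where the 1 anti-miR-21 library was assumed to vary like the others.

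Ednrb ran from 18.4 over a median of 20.9 to 23.5 CPM, and 5 of the 6 mice lay above all Veh mice, whose highest was A20 at 19.04 CPM. In the fit the log2 fold change was 0.48 (SE 0.16, adjusted p = 0.0147). It was 0.63 in flow cell A (adjusted p = 0.0032) and 0.17 in flow cell B (adjusted p = 0.808), again with 1 anti-miR-21 library. It did not pass without the 4 libraries with high adipocyte markers (0.46, adjusted p = 0.0684) or with library totals alone (0.14, adjusted p = 0.452). The 6 endothelial markers, 1 called higher and 1 lower, summed to 457 to 541 CPM in the anti-miR-21 group against 513 to 623 CPM in Veh.

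Ece1 ran from 86.0 over a median of 92.6 to 97.3 CPM, within the Veh range. Its log2 fold change was -0.01 (SE 0.08, adjusted p = 0.921), with an interval from -0.17 to 0.15. With library totals alone it was -0.35 (adjusted p = 0.00103), where the median of all genes was -0.38.

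The comparison of ACEi with Veh put the same question for ramipril, with 3 treated mice. Edn1 was 1.74-fold and Edn3 1.61-fold lower than in Veh, and Ednra, Ednrb and Ece1 did not pass. Of the 5 members tested 2 were called, both lower, where 40.1% of all genes were called and 19.1% were called lower. Only Ednrb had groups that did not overlap, 1 of 5 members against 38.6% of all genes. These values share the Veh mice with the comparison of anti-miR-21 with Veh.

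Edn1 had 16.1, 9.02 and 12.1 CPM in the ACEi mice A11, A13 and A23. A11 and A23 lay within the Veh range and A13 below it. On the log2 scale the change was -0.80 (SE 0.23, adjusted p = 0.00907), with -1.05 in flow cell A (adjusted p = 0.0146), which holds 1 ACEi library assumed to vary like the other groups, and -0.20 in flow cell B (adjusted p = 0.71). The call was lost without A13 (-0.61, adjusted p = 0.081), without the libraries with high adipocyte markers (-0.44, adjusted p = 0.143) and in a fit of these groups only (-0.81, adjusted p = 0.0518).

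Edn3 had 8.07, 6.26 and 7.16 CPM in A11, A13 and A23. A13 lay below all Veh mice, and A11 and A23 lay within their range. The fitted log2 fold change was -0.69 (SE 0.25, adjusted p = 0.035). The call was lost on leaving out any of the Veh mice A4, A16 and A20 or any of the ACEi mice A11, A13 and A23, with adjusted p up to 0.145. It was -0.51 in flow cell A (adjusted p = 0.469, with 1 ACEi library) and -0.97 in flow cell B (adjusted p = 0.0407).

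Ednra had 9.54, 9.09 and 11.5 CPM in A11, A13 and A23, of which A11 and A13 lay below all Veh mice. Fitted by edgeR, the log2 fold change of -0.36 (SE 0.24, with adjusted p = 0.234) did not pass, and its interval ran from -0.86 to 0.14. The fibroblast markers, 2 of 5 called lower, summed to 1190 to 1330 CPM, and the smooth muscle and pericyte markers, 5 of 5 called lower, to 361 to 425 CPM.

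Ednrb had 21.2, 21.7 and 20.5 CPM in A11, A13 and A23, all above the highest Veh mouse. In the fit the log2 fold change of 0.49 (SE 0.19) lay at the threshold without passing it (adjusted p = 0.0501). It passed without A4 (adjusted p = 0.0295), A16 (0.044) or A20 (0.0217), and with DESeq2 (0.48, adjusted p = 0.044). Ece1 had 90.1, 89.3 and 81.9 CPM, with a log2 fold change of -0.09 (SE 0.09, with adjusted p = 0.473) and an interval from -0.28 to 0.11.

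**Figure D2:**
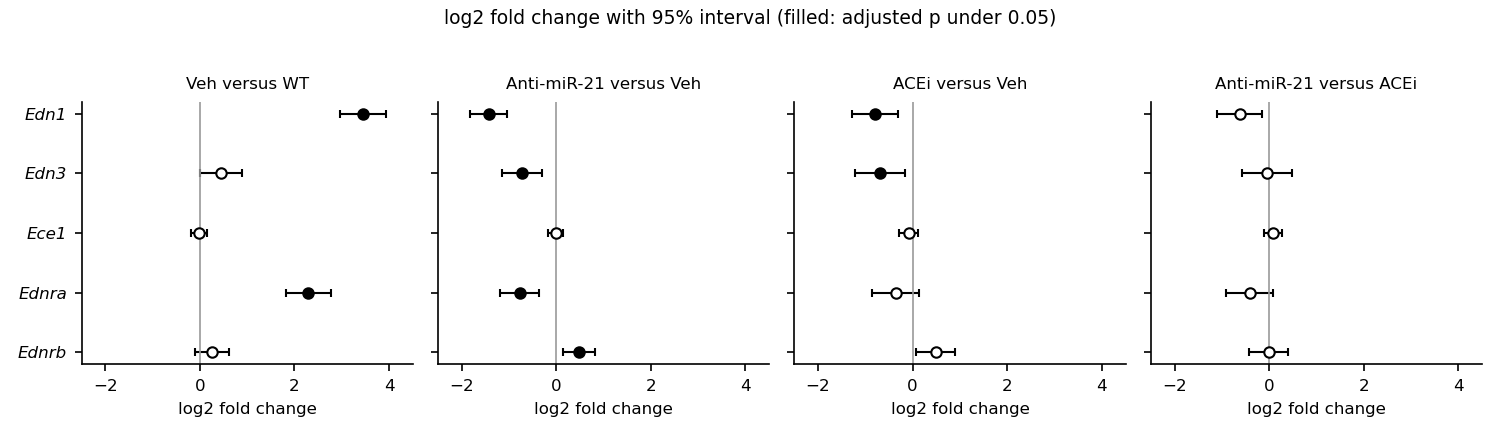
Log2 fold change of each tested endothelin gene in each comparison, with bars for the 95% interval from the edgeR fit and filled points for an adjusted p under 0.05. Edn1 reached 3.45 in Veh against WT and -1.43 in anti-miR-21 against Veh, while the intervals of Ece1 included 0 in the 4 comparisons drawn.

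The treatments were also compared with each other and with WT. Between anti-miR-21 and ACEi 0 of 5 members were called by edgeR, where 0.584% of all genes were called. DESeq2 also called 0 of 5, where it called 437 of all 17622 genes. By edgeR 1 of 5 (Edn1) had an unadjusted p under 0.05, as had 2562 of all 17622 genes. Edn1 was lower in anti-miR-21, by a log2 fold change of -0.63 (SE 0.22, with adjusted p = 0.196), with an interval from -1.10 to -0.15 before adjustment. The intervals were -0.57 to 0.48 for Edn3, -0.91 to 0.08 for Ednra, -0.43 to 0.41 for Ednrb and -0.12 to 0.27 for Ece1, so differences of that size were not resolved.

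Against WT, 3 of 5 members were called in each treated group, all higher, where 43.7% of all genes were called for anti-miR-21 (23.9% higher) and 47.7% for ACEi (25.2% higher). Edn1 was 4.06-fold higher in anti-miR-21 (adjusted p = 5.57e-07) and 6.27-fold higher in ACEi (adjusted p = 4.88e-08). Ednra was 2.86-fold higher in anti-miR-21 (adjusted p = 1.9e-05) and 3.80-fold higher in ACEi (adjusted p = 3.69e-06). Every treated mouse lay above every WT mouse for both genes and for Ednrb, which is 3 of 5 members without overlap in each comparison, against 23.8% of all genes for anti-miR-21 and 46.1% for ACEi.

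Ednrb was 1.67-fold higher than WT in anti-miR-21 (adjusted p = 0.00195) and 1.68-fold higher in ACEi (adjusted p = 0.00486). The 6 endothelial markers summed to 196 to 465 CPM in WT, to 457 to 541 CPM in anti-miR-21 with 4 called higher, and to 507 to 591 CPM in ACEi with 3 called higher, and their part in the result was not tested. Edn3 had log2 fold changes of -0.28 (adjusted p = 0.299) and -0.24 (adjusted p = 0.466), and Ece1 of -0.03 (adjusted p = 0.793) and -0.11 (adjusted p = 0.373).

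Levels were compared between genes per length, as FPKM (fragments scaled by transcript length and library depth), which were not scaled by TMM. In WT the order was Ece1 at 16.2 ± 2.69 FPKM (SD, n = 5), Ednrb at 2.93 ± 0.909, Edn3 at 2.31 ± 0.358, Edn1 at 0.696 ± 0.1 and Ednra at 0.597 ± 0.218. The ranges of Ednrb and Edn3 overlapped, as did those of Edn1 and Ednra. In Veh Edn1 stood next after Ece1, at 11.6 ± 4.32 FPKM (SD, n = 6) against 24.2 ± 2.41, and its range overlapped that of Ednrb although it was the higher of the pair in 6 of 6 mice.

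In anti-miR-21 Ednrb, at 5.68 ± 0.583 FPKM (SD, n = 6), stood above Edn1 at 3.37 ± 0.456 with ranges apart. In ACEi Ednrb at 6.06 ± 0.206 FPKM (SD, n = 3) and Edn1 at 5.47 ± 1.75 overlapped. The deposited table marks the entries of Ednra and Ednrb as confounded, so their FPKM are less certain than those of the ligands.

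The ratio of Ednra to Ednrb within a mouse does not depend on library scaling. WT mice had ratios of 0.135 to 0.274 with a median of 0.234, and Veh mice 0.667 to 1.02 with a median of 0.857. In anti-miR-21 it ran from 0.245 over 0.342 to 0.513, and in ACEi from 0.414 over 0.442 to 0.548. The Veh mice thus lay above all other mice, and the treated mice lay between WT and Veh apart from an overlap of anti-miR-21 with WT. The ratio of Edn1 to Edn3 was 0.249 to 0.374 in WT, 1.02 to 5.53 in Veh, 1.18 to 1.81 in anti-miR-21 and 1.87 to 2.59 in ACEi.

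**Figure D3:**
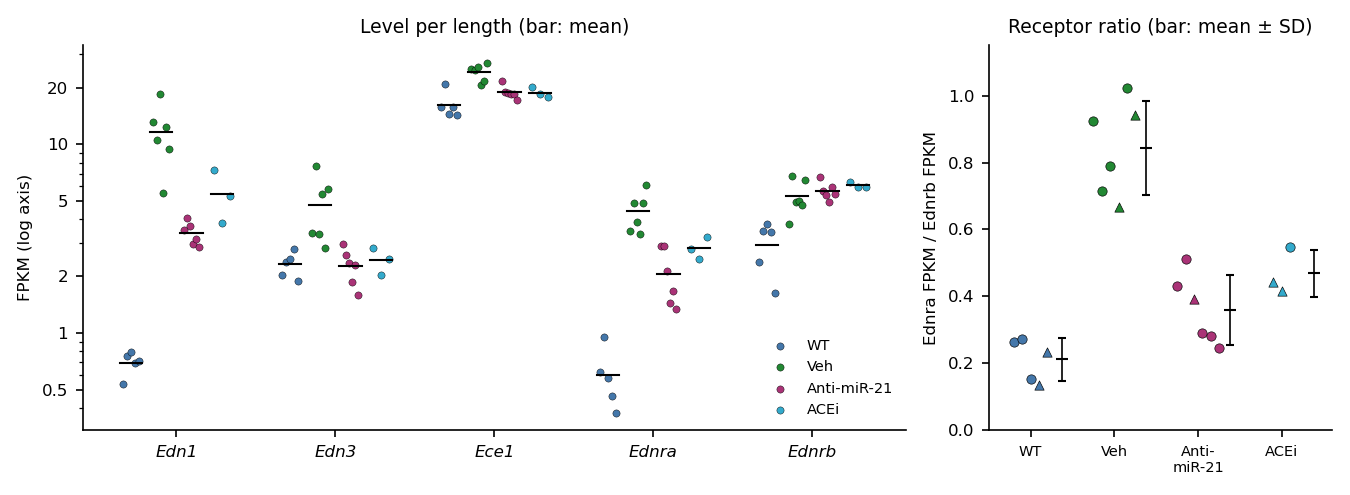
FPKM of the endothelin genes in each mouse by group on a log axis, and the ratio of Ednra to Ednrb FPKM in each mouse. The ratio was 0.667 to 1.02 in Veh and at most 0.548 in the other mice.

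Other genes of the pathway were taken as whole lists, and their counts are read against the shares of all genes called. These were 39.0% higher and 34.0% lower in Veh against WT, 28.8% and 30.5% in anti-miR-21 against Veh, and in ACEi against Veh 19.1% lower and the rest of the 40.1% called higher. With lists this short, nothing particular to a list is read from its counts. Of 8 tested processing and degrading enzymes 3 were higher and 3 lower in Veh than in WT. Mmp2, a matrix protease that can also cut big endothelin, rose from 6.83 ± 1.49 CPM (SD, n = 5) to 129 ± 22.1 (n = 6), and Ece2 rose from 8.45 ± 0.568 to 11.5 ± 1.32 CPM. Furin, which makes the first cut in the precursor, fell from 416 ± 27.1 to 233 ± 19.1 CPM, and Mme, the endothelin-degrading protease neprilysin, fell from 102 ± 14.4 to 75.7 ± 7.16 CPM. In anti-miR-21 against Veh 4 of the 8 were higher and 3 lower, and in ACEi against Veh 2 were higher and 2 lower. The called enzymes were thus 6, 7 and 4 of 8, where 73.0%, 59.2% and 40.1% of all genes were called.

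Of the 8 genes of the nitric oxide arm and receptor desensitisation 6 were higher and 1 lower in Veh, with a median log2 fold change of 1.19 against 0.07 over all genes. Arrb2, a beta-arrestin that uncouples receptors, rose from 15.4 ± 0.79 CPM (SD, n = 5) to 75.1 ± 9.25 (n = 6), and Gucy1a1, a subunit of the nitric oxide receptor, from 14.3 ± 4.56 to 55.5 ± 10.3. Against Veh 1 was higher and 4 lower in anti-miR-21, and 0 higher and 1 lower in ACEi. The called genes were 7, 5 and 1 of 8, beside the same shares of all genes.

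Among 12 known regulators of Edn1 transcription 7 were higher and 3 lower in Veh, with a median log2 fold change of 0.52. Tgfb1, a growth factor that induces Edn1, rose from 15.6 ± 3.83 CPM (SD, n = 5) to 105 ± 11.0 (n = 6). The AP-1 subunit genes Fos and Jun rose from 1.68 ± 0.661 to 19.4 ± 10.5 CPM and from 26.1 ± 6.14 to 127 ± 42.8 CPM. Fos had the largest log2 rise of the list, 3.53. In anti-miR-21 2 were higher and 9 lower than in Veh, with Tgfb1 at 49.0 ± 9.52 CPM (n = 6, adjusted p = 1.12e-06 by edgeR). In ACEi 2 were higher and 5 lower, with Tgfb1 at 60.3 ± 5.11 CPM (n = 3, adjusted p = 0.001 by edgeR). Fos and Jun were called lower in anti-miR-21 (adjusted p = 0.0044 and 4.25e-05 by edgeR) but not called in ACEi (0.974 and 0.321). The called regulators were 10, 11 and 7 of 12 in these comparisons, where 73.0%, 59.2% and 40.1% of all genes were called.

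Of 6 collecting duct targets 0 were higher and 3 lower in Veh. Among them were Avpr2, the vasopressin receptor gene, which fell from 32.7 ± 7.72 CPM (SD, n = 5) to 18.8 ± 3.46 (n = 6), and Scnn1g, a sodium channel subunit gene, which fell from 46.5 ± 8.62 to 34.7 ± 5.36. The 4 principal cell markers, of which Avpr2 is 1, summed to 582 to 916 CPM in WT and 360 to 740 CPM in Veh, with 3 called lower, and their part in the result was not tested. In anti-miR-21 and in ACEi 1 of the 6 (Scnn1g) was higher than in Veh and 0 were lower. The 3, 1 and 1 of 6 called in the 3 comparisons stand beside 73.0%, 59.2% and 40.1% of all genes. Of 10 tested other vasoactive receptors 4 were higher and 3 lower in Veh, among them Agtr1a, the angiotensin II receptor gene, which fell from 57.8 ± 3.15 to 31.7 ± 4.46 CPM. Against Veh 4 were higher and 2 lower in anti-miR-21, and 2 higher and 0 lower in ACEi, so that 7, 6 and 2 of 10 were called in the 3 comparisons. Between anti-miR-21 and ACEi 0 genes of these lists were called.

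**Figure D4:**
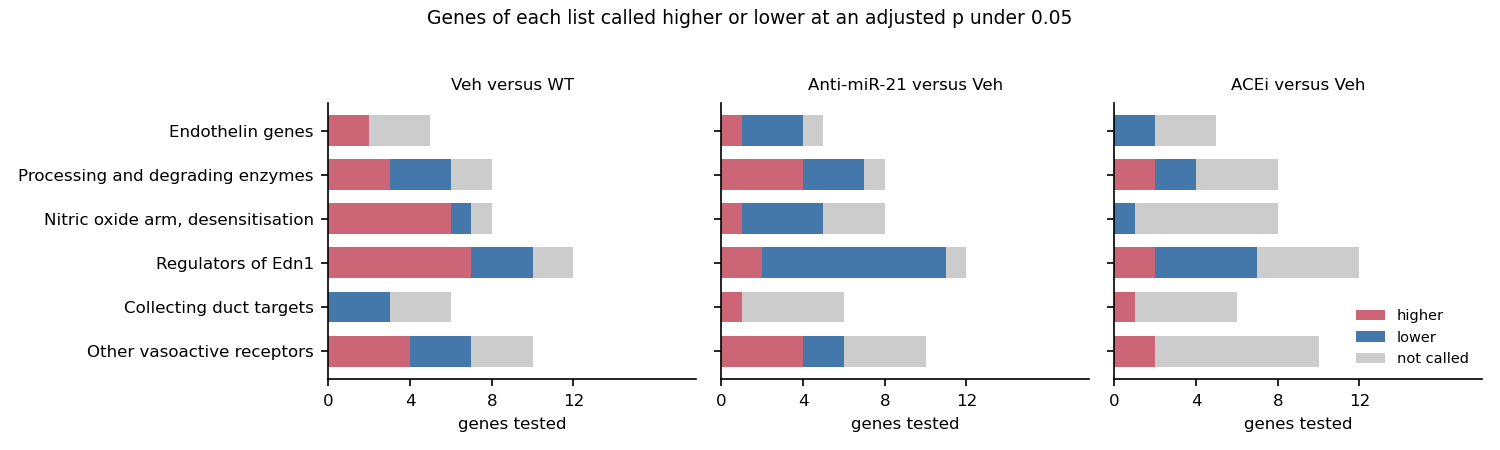
Number of tested genes in each list (bar length) called higher, called lower or not called at an adjusted p under 0.05, in 3 comparisons. Of the 8 enzymes 3 were higher and 3 lower in Veh against WT, where 39.0% of all genes were higher and 34.0% lower. Of the 12 regulators of Edn1 2 were higher and 9 lower in anti-miR-21 against Veh, where 28.8% of all genes were higher and 30.5% lower. With lists this short, nothing particular to a list is read from its counts.

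**Figure D5:**
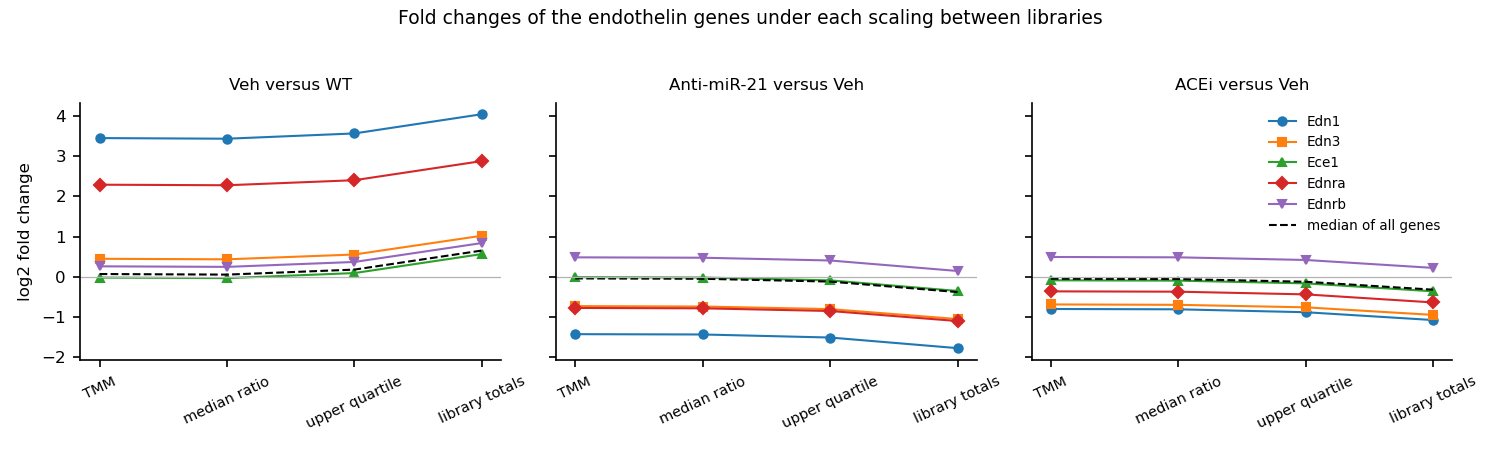
Log2 fold changes of the endothelin genes under 4 library scalings, with the median of all genes as a dashed line, in 3 comparisons. In Veh against WT Ece1 moved from -0.02 with TMM to 0.56 with library totals alone, and Edn1 from 3.45 to 4.04.

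Within groups, the members' deviations from their group means were compared in 10 pairs over 20 mice. By Pearson's r 0 of 10 passed after Benjamini-Hochberg adjustment, and 1 had an unadjusted permutation p under 0.05. That pair was Edn3 and Ednrb (r = 0.59, two-sided permutation p = 0.00618, adjusted p = 0.0618, rho = 0.68, permutation p = 0.00424, adjusted p = 0.0424). It was 0.59 without A4 and A19, 0.64 in flow cell A (n = 13) and 0.72 in flow cell B (n = 7). With deviations taken from the means of group and flow cell r was 0.59 with an adjusted permutation p = 0.382, and it was 0.79 within Veh (n = 6) and 0.28 within anti-miR-21 (n = 6). Edn1 and Ednra, the genes that were highest over WT, had r = 0.04.

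The genes whose deviations were most like a member's were sought among 12573 protein-coding genes, as a description over 20 mice of shared libraries. For Edn1 they were Agrn and Klhdc8b at r = 0.86 and Zdhhc20 at 0.84, and for Edn3 Lepr at 0.83, Cldn15 at 0.82 and Ranbp3l at 0.81. For Ednra they were Adgra2 and Pdgfrb at 0.90 and Acvr1 at 0.88, and for Ednrb Ptprb, Cxcl12 and Clec14a at 0.91. For Ece1 they were Ikzf4 and Lrp4 at 0.74 and Nsun6 at 0.73. Of the 3 genes named, those also among the 3 most alike by Spearman's rho were 1 for Edn1, 2 for Edn3, 1 for Ednra, 2 for Ednrb and 0 for Ece1.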

How the data were processed

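Kidney RNA of 20 mice was sequenced by the authors, who aligned reads with OmicSoft's OSA4. The deposited estimated counts per gene were rounded (27.9% of positive values lay over 1e-06 from a whole number, none of the members' did), and the deposited FPKM values were used for levels per length. Deposited alignment counts ran from 70004591 to 73294858 per library. There were 3 FPKM columns and 3 library entries that matched no sample and were not used. Counts were filtered (filterByExpr, minimum count 10), scaled by TMM and tested over all 17622 genes in 1 fit of the 4 groups with edgeR 4.0.16 (quasi-likelihood, Benjamini-Hochberg, threshold 0.05), in R 4.3.3. Log2 CPM of genes, used for the deviations from group means, carried a prior count of 2. Groups came from the labels. Each library is 1 mouse. Flow cell A held 13 libraries and B 7. DESeq2 1.42.0, limma 3.58.1 on log2(FPKM + 1 or 0.1), other scalings and filters, single flow cells and leaving out each mouse were alternatives. Scripts were tested on simulated data. Members and lists were chosen with earlier results of these data known. Named genes were the members, Col4a3, up to 3 rises and 3 falls per list called in Veh against WT, and the 3 genes most like each member. A further pathway list is not reported here.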

Additional observations from a re-analysis of the deposited data

Results flagged for a closer look

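Of 111 combinations of gene and group looked at, 5 held 1 mouse far from the rest by Dixon's ratio, which chance gives in about 1 of 20, and 0 of these were endothelin genes. The ACEi group, with 3 mice, was not looked at. Gucy1a1 was at 52.3 CPM in the anti-miR-21 mouse A8 against 25 to 34.3 in the others. The Veh mouse A19 had 39.9 CPM of Fos against 10.9 to 19, 213 CPM of Jun against 99.7 to 122, and 43.1 CPM of Npr3 against 12.9 to 23.9. Avpr2 was at 18 CPM in the anti-miR-21 mouse A12 against 20.3 to 21.5.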

How the results depend on the processing

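Of the log2 fold changes of members in the 4 main comparisons under the alternatives, 408 kept direction and side of the threshold, 25 newly passed, 23 no longer passed and 29 changed sign. The alternatives on adipocyte markers and on FPKM divided by the TMM factor were chosen after seeing the data. The cause of a change was not tested. Of the sign changes 3 passed the threshold, Ece1 in Veh against WT at 0.56 with library totals alone, 0.55 with log2(FPKM + 1) and 0.58 with log2(FPKM + 0.1). The others were called neither before nor after. In Veh against WT these were Ece1 with upper-quartile scaling (0.0922), at least 10 counts in every sample (0.0447), flow cell B (0.137), the 2 groups (7e-04) and leaving out 1 mouse (-0.0606 to 0.0657), and Ednrb in flow cell A (-0.0032). In anti-miR-21 against Veh they were Ece1 in flow cell A (0.0308), without the high-adipocyte libraries (0.044) and leaving out 1 mouse (-0.0296 to 0.0364). In anti-miR-21 against ACEi they were Edn3 with flow cell as a term (0.0402) and leaving out 1 mouse (-0.1268 to 0.0552), Ednrb in flow cell A (0.053), without the high-adipocyte libraries (0.0204) and leaving out 1 mouse (-0.0439 to 0.0267), and Ece1 in flow cell B (-0.0616). Of the treated groups against WT 14 changed sign. Ece1 in anti-miR-21 did so with upper-quartile scaling (0.0027), library totals (0.2123), at least 10 counts (0.0136), flow cell B (0.0055), both FPKM scales (0.2178 and 0.2295) and leaving out 1 mouse (-0.0698 to 0.0562). In ACEi, Ece1 did so with library totals (0.2036), flow cell B (0.0671) and both FPKM scales (0.2074 and 0.2187), and Edn3 with library totals (0.0728) and both FPKM scales (0.0592 and 0.0812). In Veh against WT, Edn3 newly passed with upper-quartile scaling (0.55), library totals (1.02) and at least 10 counts in every sample (0.51). Edn3 also newly passed there in flow cell B (0.74) and with log2(FPKM + 1) (0.74) and log2(FPKM + 0.1) (0.93). Ednrb newly passed in Veh against WT with library totals (0.84) and both FPKM scales (0.69 and 0.87). In anti-miR-21 against Veh, Ednrb no longer passed with library totals (0.14), both FPKM scales (0.10 and 0.12), flow cell B (0.17) or without the high-adipocyte libraries (0.46). Nor did Edn1 (-0.78) and Ednra (-0.90) in flow cell B or Edn3 in flow cells A (-0.55) and B (-1.01). Ece1 newly passed with library totals (-0.35) and both FPKM scales (-0.33 and -0.35). In ACEi against Veh, Edn1 no longer passed in flow cell B (-0.20), in a fit of the 2 groups (-0.81) or without the high-adipocyte libraries (-0.44), nor Edn3 with any count above 0 (-0.67), in flow cell A (-0.51), in a fit of the 2 groups (-0.69) or with FPKM divided by the TMM factor (-0.47). Newly passing there were Ednrb with DESeq2 (0.48), at least 10 counts (0.48) and the 2 groups (0.49), Ednra with log2(FPKM + 1) (-0.48), and Ece1 with library totals (-0.36) and both FPKM scales (-0.34 and -0.36). Leaving out 1 mouse, Edn3 ran from 0.27 to 0.57 in Veh against WT, and in ACEi against Veh Edn1 ran from -1.03 to -0.59, Edn3 from -0.78 to -0.48 and Ednrb from 0.43 to 0.60. As a share of the genes tested, those called in ACEi against Veh fell from 40.1% to 16.6% in flow cell A, 7.35% in B and 26.7% (4614 genes) without the high-adipocyte libraries, and in anti-miR-21 against Veh from 59.2% to 2.33% (418 genes) in flow cell B. Against WT they were 26.5% in A and 27.9% in B for ACEi and 13.6% in B for anti-miR-21. In anti-miR-21 against ACEi they were 0.584% (103 genes), or 2.48% (437) with DESeq2, 1.12% (155) with at least 10 counts, 0.243% (66) with any count above 0, 0.0271% (5) in flow cell A, 0% in B, 0.312% (67) with log2(FPKM + 0.1), 0.365% (63) without the high-adipocyte libraries, and 0.117% (without A23) to 1.22% (without A8) leaving out 1 mouse. No paired analysis was possible because the groups hold different mice and the labels link no mouse to one of another group. Single flow cells hold few libraries, with 1 anti-miR-21 library in B and 1 ACEi library in A.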

Other observations

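Summed levels of marker lists were set beside the members as deviations from group means over the 20 mice, as a description with no test. Of 17 lists, Ednrb was most like the endothelial markers (r = 0.87, rho = 0.87). Edn3 was most like the principal cell markers (r = 0.70, rho = 0.69). Ednra was most like the fibroblast markers (r = 0.73, rho = 0.60). With the sum of the smooth muscle and pericyte markers Ednra had r = -0.05 (rho = -0.06). Pdgfrb, a marker of that list, was by itself among the genes most like Ednra (r = 0.90, rho = 0.89). Edn1 was most like the macrophage markers (r = 0.47, rho = 0.6) and had r = 0.18 (rho = 0.31) with the tubule injury markers. It ran opposite to the proximal tubule markers (r = -0.86, rho = -0.78) and to the T cell markers (r = -0.77, rho = -0.46). The Veh mouse A16, lowest of its group in Edn1, had 29.9 CPM of T cell markers against 7.36 to 12.3 CPM in the other Veh mice. A correlation without A16 was not taken. The proximal tubule markers summed to 11700 to 15000 CPM in WT, 1290 to 3630 in Veh, 6390 to 10700 in anti-miR-21 and 6650 to 8710 in ACEi.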
